A study of Mus musculus with 12 samples.

Results

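The SOX genes encode transcription factors that bind DNA through a high-mobility-group (HMG) box related to that of the sex-determining factor SRY. The 9 genes described here are Sox11, Sox4 and Sox12 of the SOXC group, Sox5 and Sox13 of the SOXD group, Sox9 of the SOXE group, and Sox7, Sox17 and Sox18 of the SOXF group. They were chosen by symbol: every array probe whose platform annotation named one of the 9 was taken, which gave 25 probes among 45281. All 9 genes were among the 12194 genes tested, of 19057 genes with a probe of a single symbol, and 21 of their 25 probes were detected on at least 3 of the 12 arrays.

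RNA from whole uteri was measured on Illumina bead arrays, 1 uterus per array. The mice were females on a C57BL/6 background and were 2 months old, and the 4 genotypes had 3 uteri each: ablation of both Cdh1 and P53 (double cKO), of Cdh1 alone (Cdh1 cKO), of P53 alone (P53 cKO), and wild type for both genes (control). Cdh1 encodes the epithelial adhesion protein E-cadherin, and P53 is a tumour suppressor. The sources used here do not name the recombinase, the deleted stretch of either gene, the cycle stage of the mice or the chip of an array. The labels do not say whether the mice were littermates, so the p-values reflect only how far these particular uteri varied.

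Each array detected between 20075 and 21670 probes, and the median probe rested on 41 to 43 beads. The Cdh1 log2 signal was 9.67, 8.18 and 7.36 in the double cKO uteri, 9.74, 9.58 and 9.98 in the uteri labelled Cdh1 cKO, 9.26, 9.13 and 9.04 in the P53 cKO uteri, and 9.71, 9.41 and 10.08 in control uteri. It was below every control value in 2 of the 3 double cKO uteri and in all 3 P53 cKO uteri, and the Cdh1 cKO and control values overlapped. Double cKO replicate 1 lay within the control range. Double cKO replicate 1 stood apart from the others of its group also for Ovgp1, an oviduct secretory protein, at 13.20 against 5.43 and 5.79 in replicates 2 and 3, with 11.95, 11.56 and 10.39 in control uteri. The part of Cdh1 that was deleted is not given, so the Cdh1 signal does not settle the labels. Results for the Cdh1 cKO group and for double cKO replicate 1 are those of the uteri so labelled. The labelled tissue was checked on its markers: uterine epithelium, stroma and smooth muscle were measured as the summed linear signal of 14, 11 and 8 tested markers. These sums ran from 74371 to 100471, from 42722 to 45379 and from 58623 to 68838 in the double cKO uteri, against 19370 to 64314, 52922 to 56665 and 54292 to 60228 in control uteri. The epithelial sum includes the bright markers Lcn2 and Ltf, whose values are given below.

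SOX proteins bend DNA at short AT-rich motifs and usually act beside a partner factor, so that a single SOX protein serves different cell types. SOXC proteins act in progenitor cells of the developing nervous system and of many mesenchymal and epithelial organs. SOXD proteins have no activation domain of their own and work with SOX9 in cartilage. SOX9 marks progenitor and glandular cells in several epithelia, SOXF proteins act in blood and lymph vessels, and SOX17 is also needed in the mouse uterus for gland formation and implantation.

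Sox11 was the member with the widest range. Its promoter is shown beside those of its SOXC paralogs Sox4 and Sox12, because the 3 genes differed in how their signal moved. The sequences are from RefSeq, assembly GRCm38.p6, from 250 bases before to 50 bases after the start of each gene, 5′ to 3′ on the minus strand, at chr12:27342669-27342968 for Sox11, chr13:28953650-28953949 for Sox4 and chr2:152397997-152398296 for Sox12. Capitals mark CCAAT, which reads as ATTGG where it lies on the opposite strand.
Sox11: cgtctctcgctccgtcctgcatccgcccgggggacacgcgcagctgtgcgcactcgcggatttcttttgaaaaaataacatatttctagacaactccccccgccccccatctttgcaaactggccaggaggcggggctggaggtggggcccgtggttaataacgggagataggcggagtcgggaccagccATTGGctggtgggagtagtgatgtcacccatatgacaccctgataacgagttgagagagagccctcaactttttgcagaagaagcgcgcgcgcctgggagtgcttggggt
Sox4: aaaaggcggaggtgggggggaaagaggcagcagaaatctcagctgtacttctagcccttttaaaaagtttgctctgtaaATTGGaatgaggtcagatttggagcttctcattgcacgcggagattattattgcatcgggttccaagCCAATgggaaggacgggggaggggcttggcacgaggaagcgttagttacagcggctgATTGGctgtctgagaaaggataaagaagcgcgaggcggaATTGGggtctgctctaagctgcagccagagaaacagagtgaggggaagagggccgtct
Sox12: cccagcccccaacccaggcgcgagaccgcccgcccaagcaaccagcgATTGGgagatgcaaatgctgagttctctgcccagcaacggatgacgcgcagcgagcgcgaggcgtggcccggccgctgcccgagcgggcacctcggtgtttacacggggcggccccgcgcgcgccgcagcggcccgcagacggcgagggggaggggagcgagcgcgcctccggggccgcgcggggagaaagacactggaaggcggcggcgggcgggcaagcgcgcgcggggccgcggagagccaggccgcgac
CCAAT was found 1 time in the Sox11 window, 4 times in the Sox4 window and 1 time in the Sox12 window, counting both strands. It occurred in 37.4% of the 32851 promoters of the same length. GGGCGG, found in 35.7% of all promoters, occurred 2 times for Sox11, 4 times for Sox12 (matches that overlap counted singly) and not in the Sox4 window. The SOX core motifs ACAATG and ACAAAG were not found in the 3 windows. GC content was 58.7% for Sox11, 52% for Sox4 and 76.7% for Sox12, against a median of 52.7% over all promoters. Promoters matched for 5 of the 9 genes, which include Sox5 and Sox13. Sox9, Sox7, Sox17 and Sox18 had no entry.

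Sox11, which in mouse drives neuronal and mesenchymal progenitors, was higher in all 3 double cKO uteri than in every other uterus. The log2 signal of its brightest probe was 8.64, 10.22 and 10.34 in the double cKO uteri. It was 4.77, 5.77 and 5.81 in Cdh1 cKO uteri, 5.15, 4.74 and 4.97 in P53 cKO uteri, and 5.81, 5.98 and 5.51 in control uteri. The double cKO values did not overlap with those of any other group, and replicate 1 was the lowest of the 3. In bulk tissue, more cells of a type and more RNA per cell cannot be told apart. The means were 9.73 ± 0.95 in double cKO, 5.45 ± 0.59 in Cdh1 cKO, 4.96 ± 0.21 in P53 cKO and 5.77 ± 0.24 in control uteri (SD, n = 3 each). The double cKO mean exceeded the control mean by 3.97 ± 0.42 on the log2 scale (SE; 95% interval 3.03 to 4.90), or 15.6-fold, with a limma adjusted p of 7.75e-04. Among all 12194 genes this was the rise of rank 23 by size. Without double cKO replicate 1 the Sox11 difference was 4.51 with a limma adjusted p of 1.36e-04.

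Sox11 also rose against each single ablation. The double cKO mean was higher by 4.28 on the log2 scale (19.4-fold) than in Cdh1 cKO uteri, with a limma adjusted p of 0.00128, and by 4.78 (27.4-fold) than in P53 cKO uteri, with a limma adjusted p of 3.41e-04. Against Cdh1 cKO no gene of the 12194 had a larger rise. On a second, dimmer Sox11 probe, described below, the same differences were smaller. They were 2.58 against Cdh1 cKO and 2.56 against P53 cKO (limma adjusted p over all probes 0.0101 and 0.00575). The single ablations did not pass against control: Sox11 differed by -0.32 in Cdh1 cKO uteri (adjusted p = 0.868) and by -0.81 in P53 cKO uteri (adjusted p = 0.9995). The P53 cKO values on this probe all lay below the control values. These 2 groups did not overlap for 9.06% of all genes. In order of mean level, the groups ran double cKO, control, Cdh1 cKO and P53 cKO, and each neighbouring pair among the last 3 overlapped. The probe was detected on all 3 double cKO and all 3 control arrays and on 2 of 3 arrays of each single ablation. The single ablation values lay near background. The control values, though detected, lay at the level of the 2 detected Cdh1 cKO values, so they were near background too.

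The interaction asks whether the double cKO departed from the sum of both single effects. For Sox11 the departure was 5.09 ± 0.60 on the log2 scale (SE; 95% interval 3.77 to 6.41), with a limma adjusted p of 0.0246. The interaction p moved past 0.05 in several refits: the Sox11 adjusted p was 0.127 and 0.110 when control replicate 1 or 2 was left out, 0.0616 when double cKO replicate 3 was left out, 0.0957, 0.0784 and 0.117 when P53 cKO replicate 1, 2 or 3 was left out, and 0.0620 with the replicate block.

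A second Sox11 probe, at lower signal, was also highest in the double cKO uteri. Its log2 signal was 6.88, 8.15 and 8.42 in double cKO uteri, 4.73, 5.57 and 5.43 in Cdh1 cKO uteri, 5.49, 5.01 and 5.27 in P53 cKO uteri, and 5.36, 5.69 and 5.26 in control uteri. The double cKO values again lay above all others, while the P53 cKO and control values overlapped on this probe. The double cKO mean was higher by 2.38 ± 0.36 than the control mean (limma adjusted p over all probes 0.00729). The interaction on this probe was 2.76 ± 0.52, with a limma adjusted p over all probes of 0.192. The other 2 Sox11 probes were detected on 0 of 12 arrays. The plot of the 4 Sox11 probes shows both patterns.

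**Figure D1:**
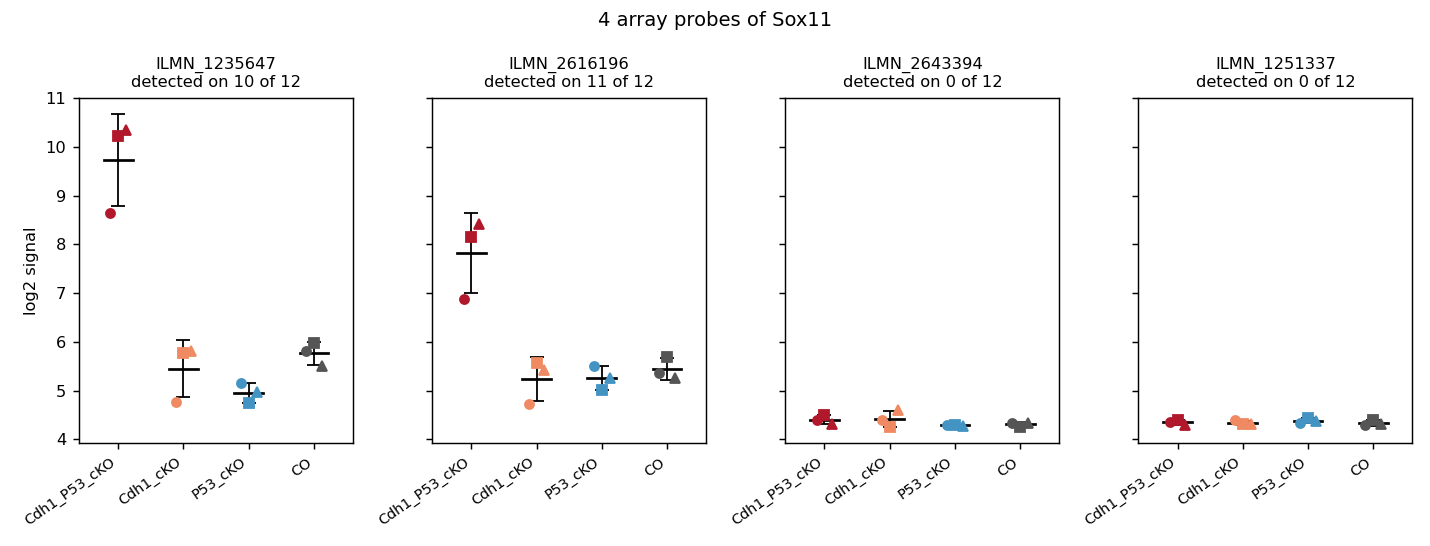
Log2 signal of the 4 Sox11 probes (one panel each) in the 12 uteri by genotype; points are arrays, marker shapes are replicates, lines are group means and whiskers are SD (n = 3; Cdh1_P53_cKO is the double cKO and CO the control). In the first 2 panels the 3 double cKO points lie above every other point, and the last 2 panels stay near background.

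Sox4, a SOXC factor widely expressed in progenitors and in epithelial tumours, did not pass in any comparison. Its log2 signal was 12.24, 11.01 and 11.37 in double cKO uteri, 11.13, 12.91 and 10.63 in Cdh1 cKO uteri, 11.17, 9.79 and 11.53 in P53 cKO uteri, and 10.61, 11.06 and 10.94 in control uteri. All groups overlapped. The difference of double cKO from control was 0.67 ± 0.59 (95% interval -0.63 to 1.98; limma adjusted p = 0.630), which leaves room for changes in either direction. The second Sox4 probe differed by 0.81.

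Sox12, another SOXC factor, had lower values in the double cKO uteri than in the controls. Its log2 signal was 8.68, 9.52 and 9.20 in double cKO uteri, 8.79, 9.92 and 9.24 in Cdh1 cKO uteri, 10.32, 9.32 and 10.21 in P53 cKO uteri, and 10.36, 10.28 and 9.77 in control uteri. Double cKO and control values did not overlap. The Sox12 difference was -1.003 ± 0.353 (95% interval -1.78 to -0.22), with an unadjusted p of 0.0162 in limma and an adjusted p of 0.169, so it did not pass. The Cdh1 cKO difference from control was -0.82 (limma adjusted p = 0.546). The second Sox12 probe differed by -0.56 between double cKO and control, and a dim other one, detected on 4 arrays, by 0.24.

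Sox5, a SOXD factor of cartilage and neurons, was the member that fell in the double cKO. Its log2 signal was 7.94, 8.49 and 8.56 in double cKO uteri, 9.26, 9.09 and 9.13 in Cdh1 cKO uteri, 9.03, 9.44 and 9.05 in P53 cKO uteri, and 9.59, 9.81 and 9.09 in control uteri. The 3 double cKO values lay below all 9 others. The means were 8.33 ± 0.34 in double cKO and 9.50 ± 0.37 in control uteri (SD, n = 3 each). Sox5 fell by 1.17 ± 0.23 on the log2 scale (SE; 95% interval -1.67 to -0.67 for the difference), 2.25-fold lower in double cKO, with a limma adjusted p of 0.0233. Against the single ablations the Sox5 differences were -0.83 for Cdh1 cKO (limma adjusted p = 0.246) and -0.85 for P53 cKO (limma adjusted p = 0.114), without overlap in either. The Sox5 interaction was -0.51 (limma adjusted p = 0.9998).

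The Sox5 call depended on single arrays. The limma adjusted p for Sox5 was 0.0991 or 0.114 with control replicate 1 or 2 left out, and 0.0714 or 0.0503 with double cKO replicate 1 or 3 left out. Among the other detected Sox5 probes the double cKO minus control differences were -0.89, -0.98, -0.17 and -0.57, with limma adjusted p over all probes of 0.130, 0.0669, 0.948 and 0.214, so the direction was shared and no single one of them passed.

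Sox13, the other SOXD member measured by 1 probe, varied least, with a range of 0.858 over all 12 arrays. Its mean log2 signal was 8.31 ± 0.34 in double cKO, 7.997 ± 0.105 in Cdh1 cKO, 8.28 ± 0.16 in P53 cKO and 8.39 ± 0.37 in control uteri (SD, n = 3 each). The double cKO difference from control was -0.08 (95% interval -0.57 to 0.40; limma adjusted p = 0.908).

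Sox9, a SOXE factor of glandular epithelium and cartilage, did not pass against control. Its log2 signal was 11.72, 10.89 and 11.14 in double cKO uteri, 12.07, 10.27 and 10.80 in Cdh1 cKO uteri, 9.999, 10.64 and 9.85 in P53 cKO uteri, and 10.34, 10.13 and 11.06 in control uteri. Double cKO and control values overlapped, and double cKO and P53 cKO values did not. The difference was 0.74 ± 0.44 against control (limma adjusted p = 0.432) and 1.09 against P53 cKO (limma adjusted p = 0.310). The second Sox9 probe differed by 0.85 from control.

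Sox7, a SOXF factor of vascular endothelium, was 10.76, 10.27 and 9.97 on the log2 scale in double cKO uteri, 9.97, 10.38 and 10.51 in Cdh1 cKO uteri, 10.01, 9.42 and 9.88 in P53 cKO uteri, and 8.83, 9.07 and 10.46 in control uteri. Control replicate 3 lay among the ablated uteri and the other 2 controls lay below all of them. The double cKO difference from control was 0.88 ± 0.39 with an unadjusted p of 0.0432 in limma and an adjusted p of 0.273. Without control replicate 3 the Sox7 difference was 1.38 with a limma adjusted p of 0.0258. The other Sox7 probes differed by 0.92 and 0.32.

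Sox17, a SOXF factor of endoderm, vessels and uterine glands, was 9.78, 9.97 and 9.93 on the log2 scale in double cKO uteri, 9.31, 10.71 and 9.49 in Cdh1 cKO uteri, 10.61, 9.22 and 10.91 in P53 cKO uteri, and 10.95, 10.76 and 9.77 in control uteri. All groups overlapped. The double cKO difference from control was -0.60 ± 0.48 (95% interval -1.67 to 0.47; limma adjusted p = 0.588), and the second Sox17 probe gave -0.52. Sox18, a SOXF factor of lymphatic and blood vessels measured by 1 probe, was 8.51, 8.80 and 8.59 in double cKO uteri, 9.63, 8.73 and 9.08 in Cdh1 cKO uteri, 9.17, 9.71 and 9.64 in P53 cKO uteri, and 9.27, 9.33 and 8.91 in control uteri. Every double cKO value of Sox18 lay below every P53 cKO and control value. The Sox18 difference was -0.54 ± 0.24 against control (limma adjusted p = 0.287) and -0.87 against P53 cKO (limma adjusted p = 0.126).

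**Figure D2:**
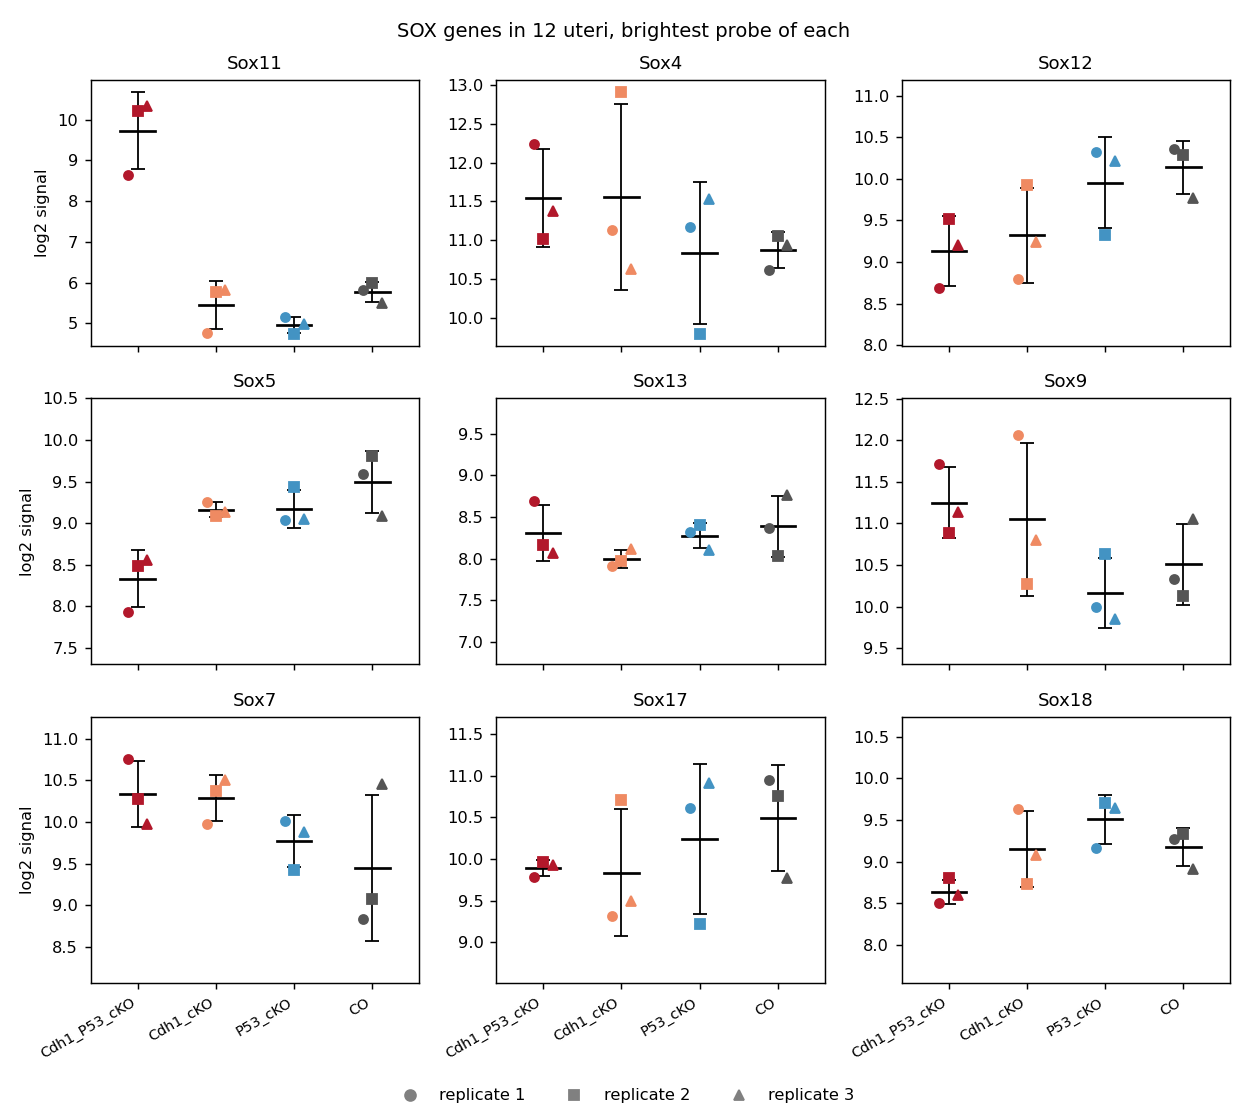
Log2 signal of the brightest probe of each of the 9 SOX genes in the 12 uteri by genotype; points are arrays, marker shapes are replicates, lines are group means and whiskers are SD (n = 3; Cdh1_P53_cKO is the double cKO and CO the control). Only the Sox11 panel shows 3 double cKO points, 8.64 to 10.34, above all others, and the Sox5 panel shows 3 double cKO points, 7.94 to 8.56, below all others.

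Over the 9 SOX genes, 2 passed between double cKO and control, 1 higher (Sox11) and 1 lower (Sox5). Of all 12194 genes 2.73% passed in this comparison, 1.91% higher and 0.82% lower. The groups did not overlap for 4 SOX genes (Sox11, Sox12, Sox5 and Sox18), against 25.7% of all genes. The median difference of the 9 was -0.08, against -0.04 over all genes. Against Cdh1 cKO 1 SOX gene passed (Sox11) where 0.492% of all genes did, and 2 did not overlap where 10.8% of all genes did not. Against P53 cKO 1 SOX gene passed (Sox11) where 1.44% of all genes did, and 4 did not overlap (Sox11, Sox5, Sox9 and Sox18) where 20.8% did not.

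The single ablations moved no SOX gene past the threshold. In Cdh1 cKO against control limma called 0 of 9 at an adjusted p below 0.05, where 0.0082% of all genes passed, and 1 SOX gene (Sox12) had an unadjusted p below 0.05, where 1070 of all genes had. In P53 cKO against control limma called 0 of 9, where 0.0164% of all genes passed, and 0 SOX genes had an unadjusted p below 0.05, where 290 of all genes had. The groups did not overlap for 0 SOX genes in Cdh1 cKO, where 11.8% of all genes did not, and for 1 (Sox11) in P53 cKO, where 9.06% did not. The interaction called 1 of 9 (Sox11), where 0.0984% of all genes passed. These comparisons share the control or double cKO uteri.

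**Figure D3:**
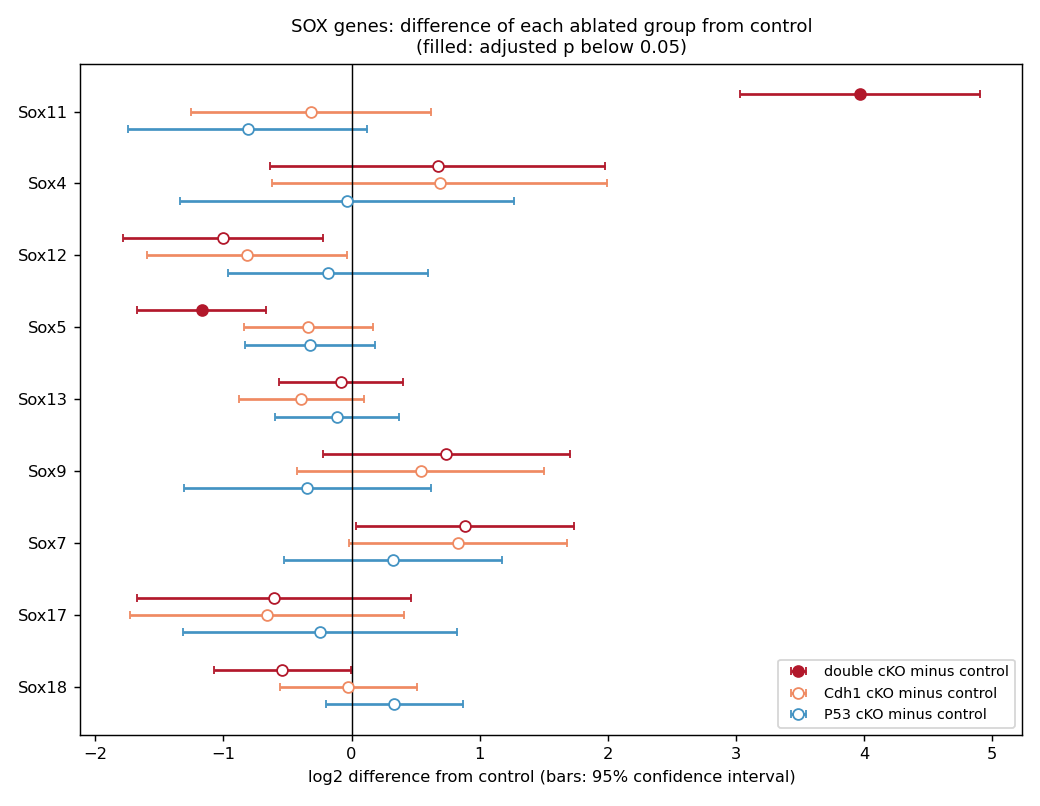
Log2 difference from control of the 9 SOX genes in double cKO, Cdh1 cKO and P53 cKO uteri, with 95% confidence intervals; filled points have an adjusted p below 0.05. The filled points are Sox11 at 3.97 and Sox5 at -1.17, both in the double cKO.

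Sox11 was also set against each paralog within an array, which asks whether the 2 genes changed by different amounts. The within-array log2 difference of Sox11 and a paralog was higher in double cKO than in control uteri by 3.29 for Sox4 (9.81-fold), 4.97 for Sox12, 5.14 for Sox5 (35.2-fold), 4.05 for Sox13, 3.23 for Sox9, 3.08 for Sox7 (8.48-fold), 4.57 for Sox17 and 4.51 for Sox18. The 3 double cKO and 3 control values did not overlap for any of the 8 paralogs. The two-sided exact permutation p was 0.1 for each, the smallest that 3 against 3 allows, and it was 0.1 after adjustment over the 8. Over all 12 arrays the double cKO excess ran from 3.67 for Sox9 to 5.29 for Sox5 against the other 9 arrays. There the two-sided exact permutation p was 0.00909 for each paralog, the smallest possible, and 0.00909 after adjustment over the 8. These 8 values share the Sox11 signal, so they are not independent, and an unequal change does not show that a paralog stayed constant. Sox11 alone separated the 3 double cKO arrays (8.64 or higher) from the other 9 (5.98 or lower). The permutation p in the main restates that gap, and the other 9 arrays pool 3 genotypes.

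**Figure D4:**
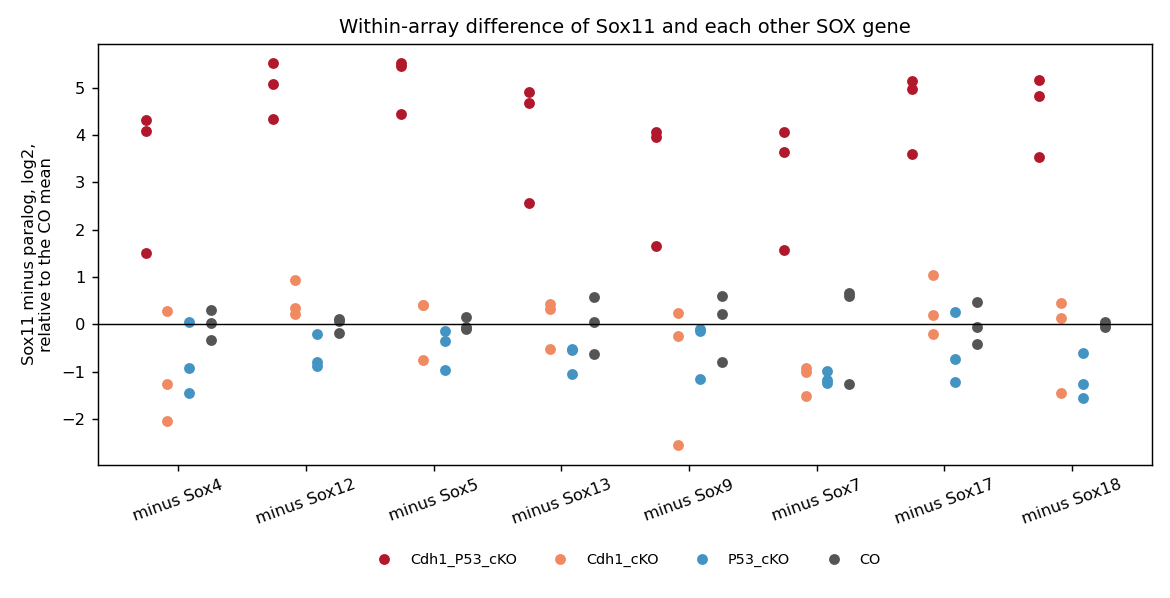
Within-array log2 signal of Sox11 minus that of each of the 8 other SOX genes, relative to the control mean, for each array by genotype. For every paralog the 3 double cKO points lie above the 9 others.

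Among the other 8 SOX genes, signals moved together in a few pairs over the 12 arrays. Of 28 pairs, 5 passed on Pearson's r and 1 on Spearman's rho after adjustment over the 28. Sox12 ran against Sox9, with r = -0.901 (permutation p = 1.10e-04, adjusted 0.00308) and rho = -0.839 (permutation p = 0.00115, adjusted 0.0322). Without the 2 arrays farthest from the median of the first-named gene of a pair, the Sox12 and Sox9 r was -0.818. It was -0.910 on deviations from group means, so the 2 genes also ran against each other within genotypes. The r on deviations was not tested, and the permutations shuffled all 12 arrays across genotypes.

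Sox12 ran with Sox17, with r = 0.852 (permutation p = 8.50e-04, adjusted 0.0119) and rho = 0.769 (permutation p = 0.00458, adjusted 0.0641), r without the 2 farthest arrays 0.887 and r on deviations from group means 0.889. Sox9 ran against Sox17, with r = -0.759 (permutation p = 0.00459, adjusted 0.0347) and rho = -0.671 (permutation p = 0.0205, adjusted 0.115), and -0.761 and -0.787 in those checks. Sox5 ran against Sox7 with r = -0.751 (permutation p = 0.00496, adjusted 0.0347) and rho = -0.636 (permutation p = 0.0299, adjusted 0.140), and -0.585 and -0.878 in those checks. Sox5 ran with Sox18 with r = 0.716 (permutation p = 0.00716, adjusted 0.0401) and rho = 0.685 (permutation p = 0.0174, adjusted 0.115), and 0.662 and 0.583 in those checks. Sox11 was left out of these pairs, since its signals formed separate clusters of double cKO and other uteri. All these signals share the same 12 libraries.

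**Figure D5:**
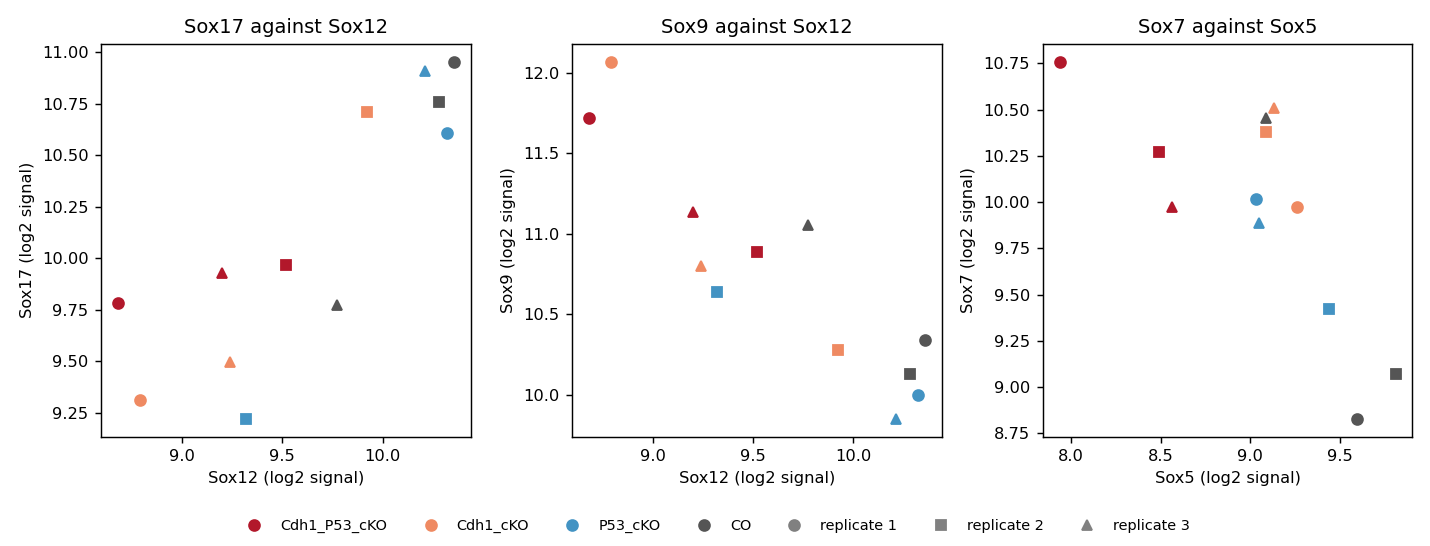
Log2 signal of one SOX gene against another in the 12 uteri, coloured by genotype, marker shapes are replicates: Sox17 against Sox12, Sox9 against Sox12 and Sox7 against Sox5. Sox17 is higher where Sox12 is higher (r = 0.852), Sox9 is lower there (r = -0.901), and Sox7 is lower where Sox5 is higher (r = -0.751).

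Outside the 9, the list of other SOX genes held 11 entries, of which 2 were tested. Sox21, a SOXB factor of neural and epithelial progenitors, had a log2 signal of 6.48, 6.23 and 6.60 in double cKO uteri, 5.28, 4.84 and 6.13 in Cdh1 cKO uteri, 4.59, 5.15 and 5.07 in P53 cKO uteri, and 4.81, 5.03 and 4.50 in control uteri. The double cKO values lay above all others. Sox21 was higher by 1.66 ± 0.30 in double cKO than in control uteri (limma adjusted p = 0.0170), with the probe detected on 3, 2, 2 and 2 of 3 arrays of the double cKO, Cdh1 cKO, P53 cKO and control groups, and its interaction was 0.86 (limma adjusted p = 0.9998). The other 2 Sox21 probes were detected on 0 arrays. Sox8 of the SOXE group differed by -0.34 (limma adjusted p = 0.457). Sox10, the SOXE factor of peripheral glia, was detected on 0 of 3 double cKO, 2 of 3 Cdh1 cKO, 0 of 3 P53 cKO and 0 of 3 control arrays, and Sox2, Sox1, Sox3, Sox15, Sox30 and Sry were detected on 0 of 12.

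Of 4 tested genes that SOX11 or SOX4 activate in other cell types 0 passed between double cKO and control, where 2.73% of all genes did. Their median difference was 0.07 against -0.04 over all genes. With 4 genes and that share, this count cannot show whether SOX11 or SOX4 activity changed. The growth factor gene Pdgfa differed by 0.25, the histone methyltransferase gene Ezh2 by 0.14, the actin-binding gene Dbn1 by -0.09 and Tead2 by 0.00. The neuronal genes Tubb3 and Dcx and the B cell gene Pax5 were not tested. Of 6 tested cartilage genes that SOX9 activates with SOX5 and SOX6, 0 passed (median -0.08). Acan, Col9a1, Col11a1 and Comp were each detected on 4 arrays, with mean log2 signals over all arrays from 4.75 to 4.79. Col11a2 was detected on 6 arrays and Col9a2 on 9. Most of these cartilage genes lay near background, so this count cannot show whether SOX9 or SOX5 activity changed.

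Genes that act with or under SOX17 in the uterus had lower values in the double cKO in 12 of 15 tested members. Of all genes 55.4% had a negative difference. Of the 15, 0 passed (median -0.69), where 2.73% of all genes did. The progesterone receptor gene Pgr had a log2 signal of 7.44, 8.33 and 8.07 in double cKO uteri, 8.47, 7.60 and 8.73 in Cdh1 cKO uteri, 8.53, 8.75 and 8.41 in P53 cKO uteri, and 9.39, 9.07 and 8.99 in control uteri. Double cKO and control values did not overlap, and the Pgr difference was -1.20 (limma adjusted p = 0.0620). The estrogen receptor gene Esr1 differed by -0.70 (limma adjusted p = 0.114), the hedgehog receptor gene Ptch1 by -1.59 (limma adjusted p = 0.196) and Wnt4 by 1.70 (limma adjusted p = 0.150). Of 14 tested canonical Wnt genes 0 passed (median 0.03), where 2.73% of all genes did.

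Of 15 tested TGF beta and epithelial-mesenchymal transition genes 1 rose and 0 fell between double cKO and control (median -0.20), where 1.91% and 0.82% of all genes did. The member that rose was Tgfb1, a growth factor, by 0.82 (limma adjusted p = 0.0317). Of 11 tested genes of wound and squamous epithelium 10 had a positive difference, as 44.6% of all genes did, and 1 rose (median 2.17). That was Krt17, a keratin of wounded and squamous epithelium, at 9.98, 11.80 and 11.72 in double cKO uteri, 6.77, 7.97 and 9.49 in Cdh1 cKO uteri, 7.79, 7.03 and 8.27 in P53 cKO uteri, and 5.21, 6.16 and 6.37 in control uteri, a difference of 5.25 (limma adjusted p = 0.00242).

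Markers of several cell types moved in the same uteri as Sox11. The summed linear signal of the 10 tested macrophage markers was 27393 to 28333 in double cKO, 9472 to 13712 in Cdh1 cKO, 6867 to 10770 in P53 cKO and 5011 to 9995 in control uteri, and 4 of the 10 rose against control and 0 fell, where 1.91% of all genes rose and 0.82% fell. Of 10 tested neutrophil markers 7 rose, where 1.91% of all genes did (median 2.55), and the sum over the 10 was 6748 to 13063 in double cKO, 1620 to 6791 in Cdh1 cKO, 1850 to 9046 in P53 cKO and 3631 to 14149 in control uteri, so the sums overlapped with control. That sum includes Hdc, the histamine-synthesising enzyme gene also expressed in mast cells, which did not pass and had a mean log2 signal of 10.74 in double cKO and 12.92 in control uteri. Among 14 uterine epithelial markers 1 rose, Cldn4, by 2.47 (limma adjusted p = 8.53e-04), and the epithelial sum of double cKO uteri did not overlap with control. A sum of linear signal rests most on its brightest members, here Ltf and Lcn2, which did not pass. Mean log2 signal of Lcn2 was 14.64 in double cKO and 11.13 ± 2.74 (SD) in control uteri (limma adjusted p = 0.150). For Ltf it was 14.68 and 12.74 (limma adjusted p = 0.268). Stroma (11 tested), smooth muscle (8), proliferating cell (8), ovary (3), mesothelium (3) and red blood cell (2) markers had 0 members that passed, with medians of -0.32, 0.26, -0.11, -0.04, 0.01 and -0.60. Of 6 tested T and NK cell markers 1 fell (Nkg7, a cytotoxic granule gene, by 1.58; limma adjusted p = 0.0468), and of 5 tested oviduct and ciliated cell markers 1 fell (Tppp3, by 2.09; limma adjusted p = 0.0324). The part of these cell types in the Sox11 difference was not tested.

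Endothelial markers are given beside the SOXF genes, since SOXF factors are expressed in vessels. Of 20 tested endothelial markers 15 had a negative difference between double cKO and control, 1 fell and 0 rose (median -0.60). Of all genes 55.4% had a negative difference, 0.82% fell and 1.91% rose. The 1 that fell was Cdh5, the adhesion gene of vascular endothelium, at 8.09, 8.42 and 8.27 in double cKO uteri, 8.76, 8.36 and 8.31 in Cdh1 cKO uteri, 8.62, 8.80 and 9.03 in P53 cKO uteri, and 9.64, 9.63 and 8.84 in control uteri, a difference of -1.11 (limma adjusted p = 0.0331). The endothelial sum was 10502 to 14175 in double cKO, 13354 to 17274 in Cdh1 cKO, 15585 to 19925 in P53 cKO and 13980 to 20972 in control uteri. Of 5 lymphatic markers 0 passed (median -0.42). The part of vessel content in the SOXF values was not tested.

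The 10 named genes whose signal followed that of Sox11 most closely over the 12 arrays had Pearson r from 0.954 to 0.971, which in the main restates the gap between the double cKO uteri and the others. Spearman's rho of the same genes ran from 0.490 for Ccl17 to 0.832 for Fbxo2. They were the cytokine receptor gene Csf2rb, the chemokine gene Ccl17, the coagulation factor gene F7, the cell cycle inhibitor gene Cdkn2a, Fbxo2, the histocompatibility gene H2-M2, Bcl2a1c, the lymphocyte receptor gene Cd6, the collagen gene Col10a1 and the potassium channel gene Kcnj15. Each was detected on all 3 double cKO arrays. Counting those, Ccl17, F7 and Bcl2a1c were detected on 4 arrays, Cd6 on 5 and Col10a1 on those 3 alone. These genes therefore entered the test only through the double cKO group. Within the other 9 arrays, where most of the 10 were mostly undetected, the same r ran from -0.156 for Bcl2a1c to 0.661 for Csf2rb. Fbxo2 was the 1 of the 10 detected on all 12 arrays.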

How the data were processed

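The authors deposited, per the file headers, a mean bead intensity per probe and array that was not normalized, a detection p-value, the bead count, and in 12 columns the standard error of the signal over beads, which was not used here. They also deposited a matrix of log2 values; the submitters' processing notes name limma 3.10.2 but no steps. The medians of its columns were 4.72, and it differed from the values computed here by at most 0.0234.

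Intensities were background corrected from the detection p-values and quantile normalised with neqc (limma 3.58.1, R 4.3.3, offset 16). Probes of 1 symbol detected (p below 0.05) on at least 3 of 12 arrays were kept, 19680 in all, and the brightest by mean stood for its gene. A limma model with 4 groups (8 residual degrees of freedom, prior 2.84) gave each contrast, 2-sided, adjusted by Benjamini-Hochberg over 12194 genes, called below 0.05. The code was tested on simulated data. Within-array differences and correlations used permutation tests (scipy 1.17.1; 100000 resamples for correlations). The number of arrays limits the precision.

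The members, gene lists, tests and alternatives were chosen with earlier results of these data known. Named are the 9 members, the 4 members of a list with the smallest adjusted p and the 2 brightest that did not pass (described where they bear on a SOX gene), the 10 genes most like Sox11, and Cdh1. P53 itself is not reported here. Same-numbered Cdh1 cKO and control arrays deviated together (r from 0.218 to 0.332), and those of other group pairs did not. Same-numbered Cdh1 cKO and P53 cKO arrays deviated in opposite directions (r from -0.648 to -0.207). For P53 cKO and control the r ran from -0.393 to 0.039. The replicate block was run as an alternative throughout.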

Additional observations from a re-analysis of the deposited data

Results flagged for a closer look

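The interaction for Sox11 stood out because the difference between double cKO and Cdh1 cKO uteri was not that between P53 cKO and control uteri. Ablation of P53 went with a Sox11 difference of 4.28 on the log2 scale where Cdh1 was ablated too. The difference was -0.81 where Cdh1 was not ablated. The departure was 5.09 with a limma adjusted p of 0.0246, and this call was lost in 9 of 19 alternatives. On the second Sox11 probe the departure was 2.76 (limma adjusted p over all probes 0.192). The P53 cKO difference of -0.81 did not pass (limma adjusted p = 0.9995), lay near background and was -0.18 on the second probe.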

How the results depend on the processing

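Sox11 passed between double cKO and control under every alternative in which it was tested, with differences from 2.75 without background correction to 4.51 without double cKO replicate 1. It was not tested where a probe had to be detected on all 12 arrays. That filter left 8 SOX genes and 1 call between double cKO and control, 0 against Cdh1 cKO, 0 against P53 cKO and 0 in the interaction. With only the groups of the comparison in the model, 1 SOX gene passed between double cKO and control (Sox5 adjusted p 0.0672) and 0 against Cdh1 cKO (Sox11 4.28, adjusted p 0.0874). The Sox11 interaction did not pass without background correction (3.12, adjusted p 0.0562), without the filter on dim probes (5.09, adjusted p 0.0620) or with the replicate block in this paired fit (5.09, adjusted p 0.0620), 0 calls each. The replicate block changed no other call. Leaving out 1 array gave 1 to 3 calls between double cKO and control (3 without control replicate 3, with Sox7 at 1.38) and 0 to 1 in the interaction, where the Sox11 difference ran from 4.75 to 5.64. The Sox5 difference from control ran from -1.37 to -0.97.

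Differences near 0 changed sign, none of them called. The Sox12 interaction was 1.74e-04 with an offset of 50 and 0.00165 without background correction. With median scaling Sox7 against Cdh1 cKO was -0.0041, Sox13 against P53 cKO -0.055 and the Sox4 interaction -0.068. Leaving out 1 array, differences of Cdh1 cKO from control ran from -0.50 to 0.025 (Sox11) and -0.27 to 0.19 (Sox18). Those of P53 cKO from control ran from -0.39 to 0.49 (Sox4), -0.37 to 0.13 (Sox12), -0.29 to 0.077 (Sox13) and -0.61 to 0.26 (Sox17). Those of double cKO from Cdh1 cKO ran from -0.48 to 0.66 (Sox4), -0.45 to 0.12 (Sox12), -0.19 to 0.71 (Sox9), -0.16 to 0.23 (Sox7) and -0.21 to 0.49 (Sox17). Sox13 ran from -0.16 to 0.15 against P53 cKO and from -0.27 to 0.11 against control in the double cKO. Interactions ran from -0.50 to 0.70 (Sox4), -0.32 to 0.30 (Sox12), -0.77 to 0.038 (Sox7) and -0.21 to 0.74 (Sox17). The cause was not tested. In all, 998 of the differences under alternatives kept their direction and side of the threshold, 43 changed direction, 15 lost the threshold and 1 gained it. Most of the 998 were not called in the main fit either, so the tally says little about the called results. Dim probes limit Sox11 outside the double cKO, where its signal lay near background.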
